A study of Mus musculus with 28 samples.

Results

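The genes described here carry out antigen presentation on MHC class I: the light chain B2m, the heavy chains H2-K1 and H2-D1, the peptide transporter subunits Tap1 and Tap2, the loading chaperone Tapbp, the proteasome subunits Psmb8 and Psmb9, and the trimming enzyme Erap1. They were chosen by symbol, with earlier results of these data known. Of the 9, 8 had a row in each of the deposited tables of 15097 and 15054 genes. Psmb9 was not analysed here. Frontal cortex RNA of 28 C57Bl/6 mice, all male, was measured in 2 cohorts, each with its own controls, to set social against metabolic stress. In the first cohort 8 mice, 21 weeks old, were kept alone for 7 weeks and confronted other mice over the last 20 days (chronic social stress, CSS). They were set against 8 mice of the same age (CSS_control). In the second cohort 6 mice of 30 to 31 weeks had received 75 mg/kg streptozotocin, a beta cell toxin, and a diet in which fat gave 43.2% of the energy, for 21 weeks (type 2 diabetes, T2D). Their 6 controls (T2D_control) were of the same age range.

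MHC class I molecules show peptides from inside a cell to CD8 T cells. The proteasome cuts proteins into peptides, TAP carries these into the endoplasmic reticulum, ERAP1 trims them and tapasin, the product of Tapbp, holds the empty heavy chain and its light chain beta-2-microglobulin at TAP until a peptide fits. Interferons raise most genes of this pathway. In the brain, microglia and endothelial cells are known as its main sites of expression, and class I molecules of neurons have been linked to synapse remodelling.

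B2m lies on chromosome 2 (122147686 to 122153083, plus strand, GRCm38) and Erap1 on chromosome 13 (74639568 to 74693201, plus strand). The other 6 lie on chromosome 17, within the MHC: Tapbp (33915899 to 33929292), H2-K1 (33996017 to 34000347, minus strand), Tap1 (34187553 to 34197225), Psmb8 (34197721 to 34201454), Tap2 (34203527 to 34216321) and H2-D1 (35262730 to 35267499), all but H2-K1 on the plus strand. All 8 are protein-coding.

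B2m and H2-K1 were the members that passed the test in any comparison, so the sequences before their starts are shown, from RefSeq (GRCm38.p6). They run 5′ to 3′ on the gene's strand, B2m at chr2:122147437-122147685 and H2-K1 at chr17:34000348-34000597, without annotated exon bases. Capitals mark matches, on either strand, to GAAANNGAA (core of the interferon-stimulated response element), GGGNNTTCC (NF-kB), TGACG, the X2 box, and the CCAAT box.
B2m: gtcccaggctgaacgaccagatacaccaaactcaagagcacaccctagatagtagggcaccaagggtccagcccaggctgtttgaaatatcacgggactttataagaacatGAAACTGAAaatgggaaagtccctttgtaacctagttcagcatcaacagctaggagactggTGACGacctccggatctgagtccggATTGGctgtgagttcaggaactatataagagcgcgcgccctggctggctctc
H2-K1: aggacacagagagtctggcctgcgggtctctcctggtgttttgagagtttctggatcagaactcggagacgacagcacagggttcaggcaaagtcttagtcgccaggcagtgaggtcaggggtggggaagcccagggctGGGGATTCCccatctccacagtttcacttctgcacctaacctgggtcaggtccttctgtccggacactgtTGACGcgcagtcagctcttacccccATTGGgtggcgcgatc
The B2m stretch held GAAANNGAA from base 139 before the start, TGACG from base 78 and the CCAAT box, on the reverse strand, from base 53. In that of H2-K1, GGGNNTTCC began at base 111, TGACG at 41 and the reversed CCAAT box at 16. Over 32851 promoter windows of 250 bases, 7.13% held GAAANNGAA, 4.98% GGGNNTTCC, 17.8% the X2 box and 33.9% the CCAAT box. These are matches of letters and say nothing of binding in these samples. Only these exact patterns were searched, so other forms of the same sites stay in small letters. A stretch without a mark is therefore not shown to lack such a site.

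Library totals were 15.2 to 21.9 M estimated counts in CSS, 14.3 to 37.5 M in CSS_control, 14.3 to 22.7 M for diabetic mice and 12.1 to 21.6 M for their controls, and RIN, an RNA integrity score, lay between 8.5 and 10. CSS 5 had the lowest RIN of the CSS cohort (9.0) and the lowest mean correlation with its group (0.976). Sample titles in the CSS cohort carry a code whose meaning is not given: 4 of 8 controls have the number 1 in it, beside 1 of 8 CSS libraries. Number 3 is carried by 3 CSS libraries and 1 control, and number 4 by 3 CSS libraries and no control. This code thus moves with the groups in part. Where results change, they are given below with the code as a block, or for all 8 CSS libraries against part of the controls. In the block the libraries of number 4 have no control to be set against. The labels describe single mice, so the spread covers differences between animals. All values are bulk levels, in which fewer cells of a type and less RNA per cell cannot be told apart.

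In CSS, B2m and H2-K1 fell and no member rose, while the other 6 did not pass the test. B2m was 22.9% lower (95% interval 14.8 to 30.2% lower) and H2-K1 20.6% lower. The call rule was an adjusted p under 0.05 in edgeR's quasi-likelihood test, with Benjamini-Hochberg adjustment over all genes of a table. It was met by 683 of 15097 genes in either direction (4.52%) and by 365 lower genes (2.42%). The count of 683 was 222 without CSS 6 and at most 794 (without CSS_control 6) in the fits that left a library out. It was over 1.5 times smaller without CSS 5, CSS 6, CSS 8 or any 1 of CSS_control 1 to 5. Against that background, 2 of 8 members were called, both lower. Log2 changes of the members had a median of −0.14, with 6 below 0 and 2 above, beside a median of 0.01 over all genes. In T2D no member was called.

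**Figure D1:**
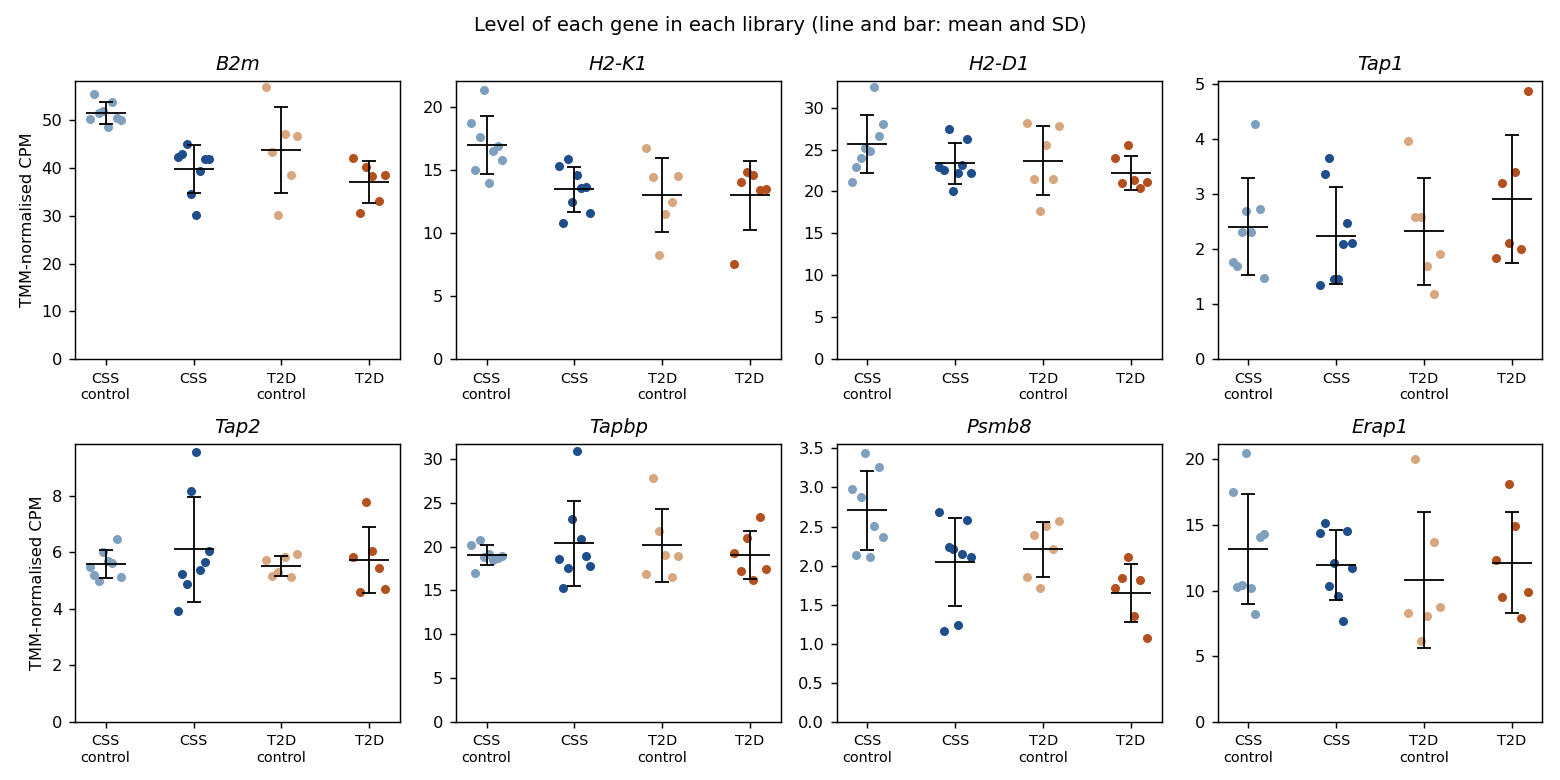
Level of the 8 genes in every library, in counts per M of the library total scaled by TMM within each cohort (CPM, y axes from 0), by group (x axes). Points are libraries, and the line and bar are the mean and SD. B2m in CSS lies at 30.2 to 45.1 CPM, below all CSS_control libraries at 48.7 to 55.6 CPM.

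B2m encodes beta-2-microglobulin, the light chain that pairs with the class I heavy chains. Its normalised level ran from 30.2 through a median of 41.9 to 45.1 CPM in CSS and from 48.7 through 51.1 to 55.6 CPM in CSS_control. All 8 stressed libraries lay below all 8 controls, which was so for 60 of the 15097 genes (0.397%). The means were 39.8 ± 4.97 and 51.6 ± 2.25 CPM (SD, n = 8 each), and the log2 change was −0.37 ± 0.07 (SE, edgeR adjusted p = 0.00970). CSS 5 (30.2 CPM) and CSS 4 (34.6 CPM) were the lowest libraries. Leaving out any 1 of the 16 libraries kept the call (edgeR adjusted p between 0.00864 and 0.0242). Controls with title code 1 (50.2 to 55.6 CPM) and with other codes (48.7 to 53.9 CPM) overlapped, and both lay above CSS. With the title code as a block the log2 change was −0.34 (edgeR adjusted p = 0.138), and against the 4 controls of other codes it was −0.36 (0.225), so the call was lost. Those fits called 2 and 0 genes in the whole table.

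In the T2D cohort B2m ran from 30.5 through 38.5 to 42.1 CPM under treatment and from 30.2 through 45.1 to 56.9 CPM in controls. The groups overlapped and T2D_control 3 was the lowest library of all 12, although 6 of 6 T2D libraries lay below the control mean. The means were 37.2 ± 4.41 and 43.8 ± 8.98 CPM (SD, n = 6 each), with a log2 change of −0.23 (95% interval −0.51 to 0.04, edgeR adjusted p = 0.825). In the fits without 1 library it ran from −0.32 without T2D_control 3 (edgeR adjusted p = 0.446) to −0.15 without T2D_control 1 (0.978). RIN was lower in T2D (median 9.0, beside 9.45 in controls) and lowest in T2D_control 3 (8.5), and with RIN as a covariate the log2 change was −0.09. The 4 group means were ordered CSS_control, T2D_control, CSS and T2D. The cohorts differ in age and were scaled separately, so only differences within a cohort were tested. In that order, neighbouring means differed by less than the larger SD of each pair.

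H2-K1 encodes a classical heavy chain, one of the polymorphic chains that hold the peptide. In CSS it ran from 10.8 through 13.6 to 15.9 CPM and in CSS_control from 14.0 through 16.7 to 21.4 CPM. The ranges overlapped, with 5 of 8 CSS libraries under the lowest control and 8 of 8 under the control mean. The means of 13.5 ± 1.80 and 17.0 ± 2.31 CPM (SD, n = 8 each) gave a log2 change of −0.33 ± 0.09 (SE, edgeR adjusted p = 0.0492). That p is close to the threshold, and the call was lost in 13 of the 16 fits without 1 library (up to 0.100, without CSS_control 1). It was kept without CSS 1, CSS 3 or CSS_control 5. With RIN as a covariate the edgeR adjusted p was 0.0630, and against the 4 controls of other title codes the log2 change was −0.24 (0.370). In T2D the levels ran from 7.55 through 13.8 to 14.8 CPM and in T2D_control from 8.26 through 13.5 to 16.8 CPM. T2D 1 stood apart at the low end, and the log2 change was 0.00 (95% interval −0.38 to 0.38), or 0.12 without that library.

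H2-D1, the other classical heavy chain of this strain, ran from 20.0 through 22.7 to 27.4 CPM in CSS and from 21.2 through 25.0 to 32.4 CPM in CSS_control. The groups overlapped almost fully, with 7 of 8 stressed libraries inside the control range. Its log2 change was −0.13 (95% interval −0.31 to 0.04, edgeR adjusted p = 0.365). Among controls, the 4 of title code 1 lay at 21.2 to 25.2 CPM and the 4 others at 24.9 to 32.4 CPM. Against the first 4 alone the log2 change was 0.00, and against the other 4 it was −0.26 (edgeR adjusted p = 0.265). In T2D it ran from 20.4 through 21.2 to 25.6 CPM and in T2D_control from 17.7 through 23.5 to 28.1 CPM, with a log2 change of −0.09 (95% interval −0.33 to 0.16). A share of 22.8% of the 31-base words in H2-K1 transcripts occurs in other genes, 11.1% in H2-D1, and of those in H2-D1 26.7% do. Values of both heavy chains are therefore uncertain, while B2m shares 0% of its words.

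**Figure D2:**
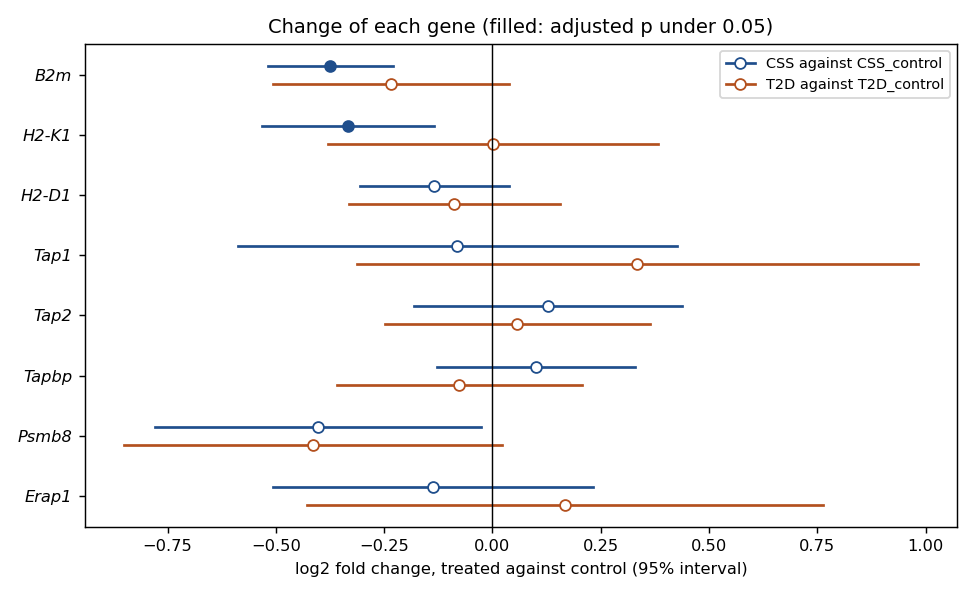
Log2 fold change of the 8 genes (y axis) in CSS and in T2D, each against its own controls (x axis), with 95% intervals from edgeR. Filled points passed an adjusted p under 0.05, which only B2m and H2-K1 in CSS did.

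Psmb8 encodes the immunoproteasome subunit that takes the place of the constitutive catalytic subunit Psmb5. Its level was low, from 1.17 through 2.18 to 2.69 CPM in CSS and from 2.11 through 2.69 to 3.44 CPM in CSS_control. Those values rest on 22.3 to 76.8 estimated counts a library. Both groups overlapped in the middle, with 3 of 8 CSS libraries under the lowest control, of which CSS 2 and CSS 5 were lowest (1.17 and 1.24 CPM). The log2 change was −0.40 ± 0.18 (SE) and did not pass (edgeR adjusted p = 0.200). In T2D it ran from 1.07 through 1.76 to 2.11 CPM and in T2D_control from 1.71 through 2.30 to 2.57 CPM, with 6 of 6 treated libraries under the control mean. Its log2 change there was −0.41 (95% interval −0.85 to 0.02, edgeR adjusted p = 0.825). Psmb8 thus had the lowest estimate of the 8 members in both cohorts, with wide intervals. Of its exon bases, 14.7% overlap the opposite-strand gene Gm20496.

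Genes of peptide transport and loading had changes of either sign and none passed. Tap1, a TAP subunit, ran from 1.34 through 2.09 to 3.66 CPM in CSS and from 1.47 through 2.31 to 4.28 CPM in CSS_control (log2 change −0.08, 95% interval −0.59 to 0.43). In T2D it ran from 1.84 through 2.66 to 4.87 CPM and in T2D_control from 1.18 through 2.25 to 3.96 CPM (log2 change 0.33, 95% interval −0.31 to 0.98). These intervals are the widest of the 8 members in each cohort, and the groups overlapped in both.

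Tap2, its partner subunit, ran from 3.91 through 5.50 to 9.55 CPM in CSS and from 4.97 through 5.55 to 6.47 CPM in CSS_control. The stressed libraries spread to both sides of the controls, with CSS 5 (9.55 CPM) and CSS 4 (8.17 CPM) highest, and the log2 change was 0.13 (edgeR adjusted p = 0.658), or 0.0019 without CSS 5. Tapbp, for tapasin, showed the same outlying libraries, at 31.0 CPM in CSS 5 and 23.2 CPM in CSS 4, in a range of 15.3 to 31.0 CPM with a median of 18.7 in CSS. CSS_control ran from 17.0 through 18.9 to 20.8 CPM, and the log2 change was 0.10 (edgeR adjusted p = 0.635). CSS 4 and CSS 5 were thus lowest in B2m and highest in Tap2 and Tapbp. Without CSS 5 the Tapbp estimate was −0.02, at the low end of the 16 fits without 1 library. In T2D the log2 change was 0.06 for Tap2 (4.57 to 7.77 CPM, controls 5.13 to 5.95) and −0.08 for Tapbp (16.2 to 23.4 CPM, controls 16.5 to 27.8). Exon bases of Tapbp overlap Gm19412 on the opposite strand (24.9%) and Zbtb22 on the same strand (4.11%). Those of Tap2 overlap Gm15821 (14.1%) and Gm20496 (4.36%), both on the opposite strand.

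Erap1, which trims peptides to the length that class I molecules hold, ran from 7.69 through 11.9 to 15.1 CPM in CSS and from 8.18 through 12.2 to 20.4 CPM in CSS_control. Its groups overlapped, with a log2 change of −0.14 (95% interval −0.51 to 0.23, edgeR adjusted p = 0.695). In T2D it ran from 7.94 through 11.1 to 18.2 CPM and in T2D_control from 6.14 through 8.51 to 20.0 CPM (log2 change 0.17, 95% interval −0.43 to 0.76). Of its exon bases 11.5% overlap Cast on the opposite strand.

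Per kilobase of transcript, B2m had the highest level of the 8 in CSS_control, at 60.0 CPM per kb. H2-D1 (12.2) and H2-K1 (10.9) followed, then Tapbp (6.93), Erap1 (2.33), Psmb8 (1.66), Tap2 (1.62) and Tap1 (0.864), all in CPM per kb of the median coding transcript. The light chain was thus far above its 2 classical partners at the level of RNA.

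No member was called in T2D (edgeR adjusted p of 0.825 or more), and neither was any of the 15054 genes (0.00%). An unadjusted p under 0.05 was found for 879 genes, among them 0 members, while DESeq2 called 4 genes and limma-voom 0, none of them members. The members' median log2 change was −0.04, with 4 below and 4 above 0. The CSS change minus the T2D change was called in 12 of 14888 genes (0.0806%) and in no member, and at an unadjusted p under 0.05 edgeR had 0 members. Without 1 library the 12 became 0 to 32. For H2-K1 this difference was −0.34 (95% interval −0.74 to 0.05, edgeR adjusted p = 0.478) and for B2m −0.15 (−0.44 to 0.14, 0.707). So B2m and H2-K1, called in CSS and not in T2D, were not shown to differ between the cohorts. With RIN as a covariate these differences were −0.30 for B2m (unadjusted p = 0.0290, edgeR adjusted p = 0.428) and −0.44 for H2-K1 (0.0417 and 0.462). Without 1 library that of B2m lay between −0.24 and −0.06 and that of H2-K1 between −0.46 and −0.24. The lowest H2-K1 value was without T2D 1 (edgeR unadjusted p = 0.0114, adjusted p = 0.216). For Psmb8 the difference was 0.00 (−0.49 to 0.49).

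Ratios of 2 genes within a library do not depend on how libraries are scaled, and 6 of them were compared by two-sided exact permutation tests with Benjamini-Hochberg adjustment over the 6. The log2 ratio of Psmb8 to Psmb5 was −4.38 ± 0.39 in CSS and −3.81 ± 0.38 in CSS_control (SD, n = 8 each), and below the control mean in 8 of 8 stressed libraries. That difference of −0.57 had an exact p of 0.00917 and an adjusted p of 0.0550. Psmb5, however, divided the controls by title code, at 30.4 to 34.4 CPM with code 1 and 40.8 to 44.4 CPM with the others, beside 34.1 to 44.5 CPM in CSS. The difference was −0.85 against the first (exact test, adjusted p = 0.0485) and −0.30 against the second (0.208), a split chosen after seeing the data. For these adjusted values only the p of this ratio was recomputed, and the other ratios kept theirs from all libraries. Psmb5 also shares 71.7% of its 31-base words with other genes and is uncertain. In T2D the ratio was −4.91 ± 0.42 against −4.52 ± 0.22 in T2D_control (SD, n = 6 each), a difference of −0.38 (exact p = 0.0823, adjusted p = 0.104).

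The ratio of Psmb10, another immunoproteasome subunit, to its constitutive counterpart Psmb7 was higher by 0.20 log2 units in CSS, in 7 of 8 libraries (exact p = 0.0264, adjusted p = 0.0793), the opposite direction to Psmb8. Psmb10 levels overlapped between the controls of title code 1 (12.8 to 16.1 CPM) and the others (14.9 to 20.2 CPM). Their means were 14.3 ± 1.37 and 17.5 ± 2.19 CPM (SD, n = 4 each), beside 17.4 ± 2.33 CPM in CSS (n = 8). The ratio differed by 0.28 against the first (exact test, adjusted p = 0.0727) and by 0.11 against the second (0.310). In T2D it differed by 0.03 (exact p = 0.758). B2m relative to the sum of H2-K1 and H2-D1 was at a log2 ratio of 0.11 ± 0.20 in CSS and 0.28 ± 0.13 in CSS_control (SD, n = 8 each), a difference of −0.17 (exact p = 0.0533, adjusted p = 0.104). In T2D the difference was −0.18 (exact p = 0.0866, adjusted p = 0.104). None of the 6 passed after adjustment. Leaving out CSS 1 or CSS_control 5 brought the first ratio in CSS under 0.05 (adjusted p of the exact test 0.0261 and 0.0242), leaving out CSS 8 or CSS_control 5 the second (0.0224 and 0.0373), and leaving out CSS 2 the third (0.0420). In T2D the third did so without T2D 1 (0.0275). Here too only the p of the ratio in question was recomputed before adjustment.

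**Figure D3:**
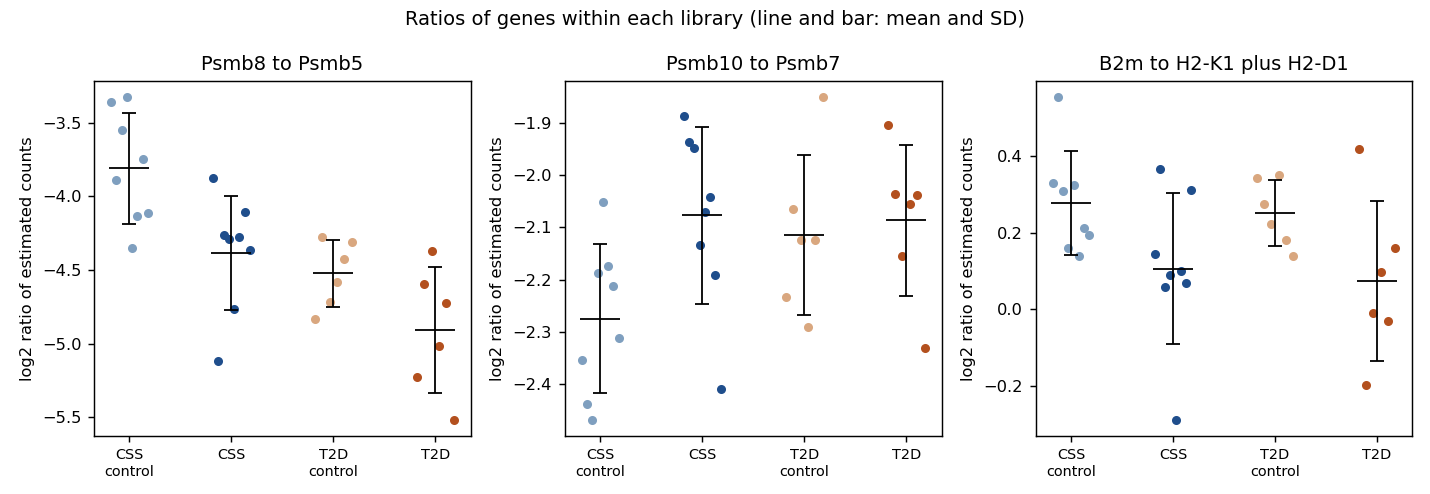
Log2 ratios of estimated counts within each library (y axes) by group (x axes) for Psmb8 to Psmb5, Psmb10 to Psmb7 and B2m to the sum of H2-K1 and H2-D1. Points are libraries, and the line and bar are the mean and SD. The mean ratio of Psmb8 to Psmb5 is −4.38 in CSS and −3.81 in CSS_control, with overlapping libraries.

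The other genes of the pathway changed in few cases. Of 8 further class I and class I-like genes in the CSS table none passed, with a median log2 change of −0.02, 5 below 0, and H2-Q4 at −0.35 (edgeR adjusted p = 0.347) as the member of smallest p. The non-classical genes H2-T23 (13.1 ± 2.33 against 13.1 ± 1.80 CPM) and H2-T22 (17.6 ± 1.72 against 17.3 ± 2.33 CPM, SD, n = 8 each) had log2 changes of 0.00 and 0.03. In T2D none of 7 passed, with a median log2 change of −0.15, 5 below 0, and H2-T22 at −0.25 (edgeR adjusted p = 0.825). H2-T23 had the lowest estimate of these, at −0.46 (13.3 ± 5.40 against 18.4 ± 2.52 CPM, SD, n = 6 each, edgeR adjusted p = 0.825), and its CSS change minus its T2D change was 0.45 (edgeR adjusted p = 0.427).

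Of 12 other genes of loading and trimming 1 rose and 1 fell in CSS, beside 683 of 15097 genes called in either direction (4.52%). Npepps, a cytosolic aminopeptidase that trims peptides, rose by 0.27 log2 units, to 123 ± 12.9 CPM (SD, n = 8, edgeR adjusted p = 0.0233). Blmh, a cytosolic peptidase, fell from 51.5 ± 6.16 to 41.9 ± 4.16 CPM (SD, n = 8 each; log2 −0.30, edgeR adjusted p = 0.0352). Npepps lost its call in 2 of the 16 fits without 1 library, those without CSS 6 or CSS_control 2, and Blmh in 11 of 16, and neither passed with the title code block. The median of the 12 was 0.05. None of 5 further immunoproteasome and activator genes passed (median 0.04), nor any of the 3 constitutive catalytic subunits, with Psmb6 at −0.15 (edgeR adjusted p = 0.142). In T2D none of these passed.

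Interferon receptors and regulators had 0 of 22 called in CSS, with a median of 0.03, and Irf1, a transcription factor that binds class I promoters, at −0.34 (edgeR adjusted p = 0.122). None of 30 interferon-stimulated genes passed either. Their median was −0.12 with 21 below 0, and Ifih1, a sensor of viral RNA, was at −0.31 (edgeR adjusted p = 0.0945). In T2D the median of 28 such genes was −0.18 with 23 below 0 and 0 called. Of MHC class II genes 4 were in the CSS table and 0 passed, with Cd74, the invariant chain, at 0.40 (edgeR adjusted p = 0.328).

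**Figure D4:**
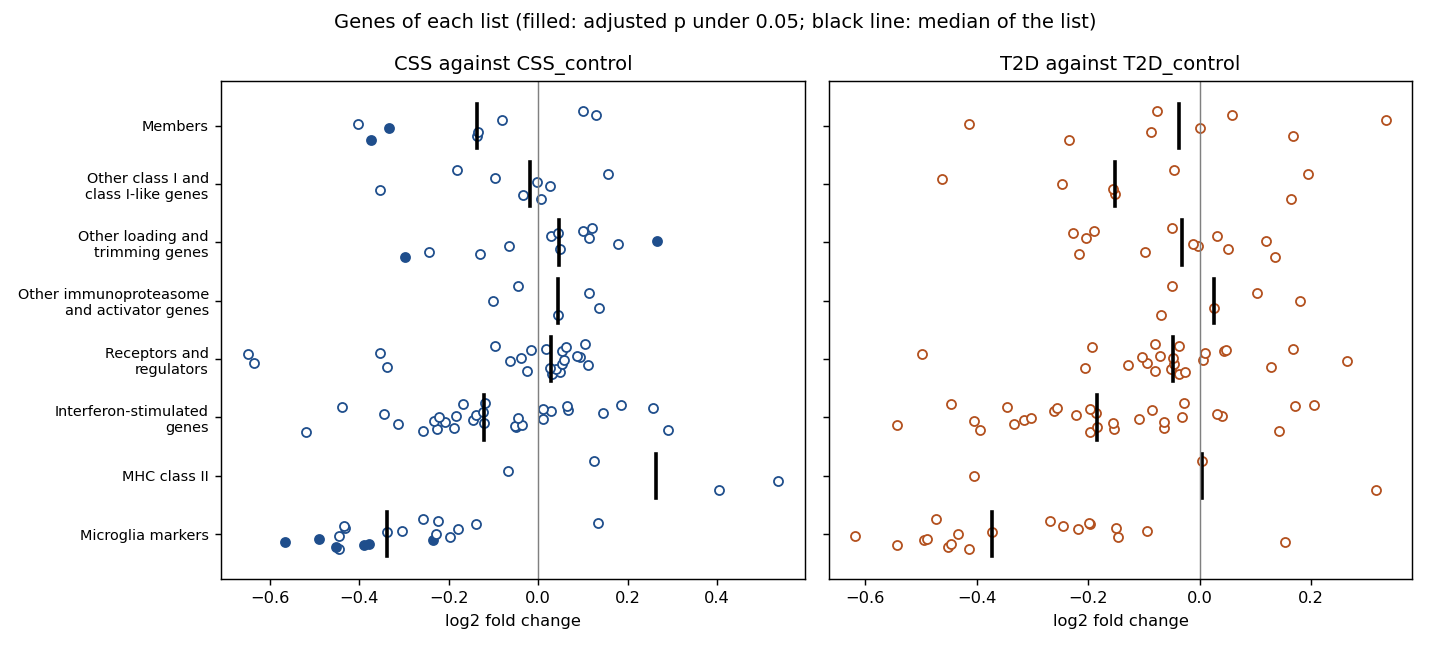
Log2 fold changes (x axes) of the genes of each list (y axis) in CSS and in T2D, each against its own controls. Filled points passed an adjusted p under 0.05 and the black line is the list's median. The members' median is −0.14 in CSS, and microglia markers lie mostly below 0 in both cohorts.

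Microglia markers were also lower in CSS. Of 19 markers 6 fell in CSS, none rose and 18 were below 0, with a median log2 change of −0.34. Over all genes, 365 of 15097 were called lower (2.42%) and 48.7% were below 0. C1qa, a complement subunit made by microglia, went from 35.9 ± 2.69 to 26.2 ± 5.44 CPM (log2 −0.45, edgeR adjusted p = 0.0274), and Cd68, a lysosomal protein of phagocytes, fell by 0.57 log2 units (0.0185). Ctss, Csf1r, C1qb and C1qc were the other 4. Without 1 library the count of falls was 1 to 7, with 1 without CSS 6 or CSS_control 2 and 4 without CSS 5, while the median stayed between −0.42 and −0.25 and Cd68 passed each time. With the title code block, or against the controls of other codes, 0 of 19 passed, with medians of −0.22 and −0.37. The summed level of the 19 ran from 245 through 415 to 469 CPM in CSS and from 450 through 490 to 527 CPM in CSS_control, with 7 of 8 stressed libraries under the lowest control. CSS 5 was lowest in the sum, as it was in B2m. In T2D 0 of 19 passed, 18 were below 0 with a median of −0.37, and the sum ran from 235 through 260 to 451 CPM against 268 through 388 to 471 CPM in controls. No marker was at 0 in any library. What part these cells have in the B2m and H2-K1 values was not tested.

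**Figure D5:**
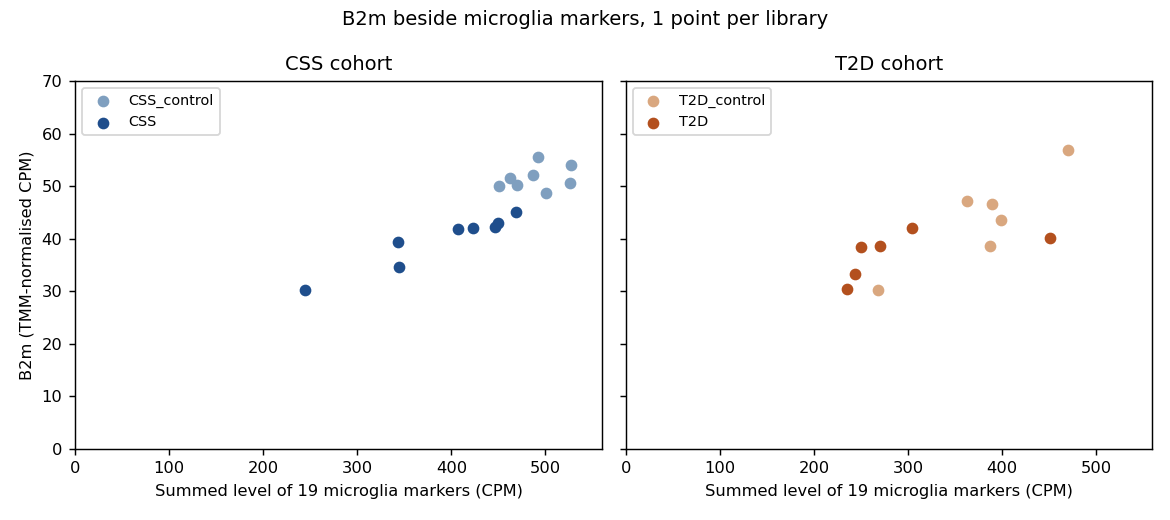
B2m level (y axis, CPM) beside the summed level of 19 microglia markers (x axis, CPM), with 1 point per library, in the CSS cohort and in the T2D cohort. Within the CSS cohort CSS 5 is lowest in both, at 30.2 CPM of B2m and 245 CPM of markers.

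No marker of the other cell types was called lower in CSS. Over all genes, 318 of 15097 were called higher in CSS. Of 18 endothelial markers 2 rose in CSS, with a list median of 0.14. They were Mfsd2a (log2 0.35, edgeR adjusted p = 0.0330) and Slco1a4 (0.24, 0.0331), both transporters of the blood-brain barrier. Between 0 and 4 endothelial markers rose in the fits without 1 library. With the title code block 0 passed and the median was −0.05, with 11 of 18 below 0, and against controls of other codes 0 passed, with a median of 0.04. Their sum ran from 306 to 440 CPM against 311 to 379 CPM in controls. Of 10 astrocyte markers 2 rose, Slc1a2 and Fgfr3, which lost their calls in 9 and 13 of the 16 fits without 1 library. Neither passed with the title code block or against controls of other codes, where the list's median went from 0.17 to 0.06 and 0.12. None of 10 neuron, 10 oligodendrocyte or 4 border macrophage markers passed. Of 13 genes of lymphocytes and class I receptors, Cd4 alone was in the tables, and it did not pass (edgeR adjusted p = 0.384 in CSS).

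Over all 28 libraries, after each group's mean was taken away, the genes whose levels were most like those of B2m were Siglech (r = 0.80), Ly86 (0.79), Serinc3 (0.79), C1qb (0.77) and Cdk5 (0.76), of 13702 genes ranked. Siglech, Ly86 and C1qb are on the list of microglia markers. These correlations compare genes measured in the same library, with its depth and dissection in common, and carry no test. Among the members themselves 28 pairs were compared in this way, with a median r of 0.06. B2m and H2-D1 varied together (Pearson r = 0.67, permutation adjusted p = 0.0106; Spearman rho = 0.62, permutation adjusted p = 0.0325), and no other pair passed. Without the 2 libraries farthest in B2m r was 0.60, and it was 0.37 within the CSS cohort and 0.88 within that of T2D. B2m and H2-K1 had an r of 0.25, and B2m and Tapbp one of −0.51 (permutation adjusted p = 0.276), −0.92 within the CSS cohort, where CSS 4 and CSS 5 were the extreme libraries.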

How the data were processed

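Total RNA was depleted of ribosomal RNA (Ribo-Zero Gold) and sequenced as stranded TruSeq libraries, per the labels' protocols. The authors deposited 1 table of estimated gene counts per cohort, with Salmon 1.1.0 and mm10 named in the submitters' processing notes; how transcripts were summed, strand and filters were not given in the sources used here. Values were rounded to whole numbers and tested in R 4.3.3 with edgeR 4.0.16 (TMM, default filter, which removed no gene, robust quasi-likelihood, group as the only term), each cohort by itself. A contrast of both changes used all 28 libraries and the 14888 genes in both tables. Adjusted p-values are Benjamini-Hochberg over all genes with a threshold of 0.05. Calls by edgeR and limma-voom on simulated counts with known changes were checked; DESeq2 made more false calls in the smaller cohort than its nominal rate. Alternatives used limma 3.58.1 and DESeq2 1.42.0. Figures used matplotlib 3.10.9.

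Within-library ratios were taken from the deposited estimated counts and tested exactly with scipy 1.17.1. A planned ratio of Psmb9 could not be computed, which left 6 tests. In settings other than the main one, only the exact p of the ratio in question was recomputed before adjustment. The other ratios kept their main p. Correlations between members used log2(CPM + 0.5) less the group mean and 100000 permutations within groups. Likeness to B2m was ranked over genes whose mean log2 CPM was 1 or more. Genes named are all members, the ratio partners, from other lists those past the threshold (at most 6) or that of smallest p, and the 5 genes most like B2m; H2-T23 was named after its value was seen, as was H2-T22 in CSS. Members and lists were chosen with earlier results of these data known. Gene positions, transcript lengths and shared 31-base words came from GENCODE M21 (GRCm38). Total counts bound the precision of low genes such as Psmb8 and Tap1.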

Additional observations from a re-analysis of the deposited data

Results flagged for a closer look

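Among 60 sets of values (a gene or ratio in a group), 7 held a library far from the rest of its group by Dixon's test; chance alone gives about 1 in 20 sets. T2D 1 accounted for 4 of them. It had the lowest H2-K1 level, 7.55 CPM beside 13.4 CPM in the next library, and the highest levels of the constitutive proteasome subunits Psmb5 (64.2 CPM, next 48.8), Psmb6 (76.9 CPM, next 65.4) and Psmb7 (94.2 CPM, next 78.8). Tap1 was high in CSS_control 6, at 4.28 CPM beside 2.72 CPM in the next. The log2 ratio of B2m to the sum of H2-K1 and H2-D1 was low in CSS 5 (−0.29, next 0.06) and high in CSS_control 2 (0.55, next 0.33).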

How the results depend on the processing

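In CSS 2 members were called, as with DESeq2, its size factors, a minimum of 5 CPM or the controls of title code 1. The fit with no filter repeats the main fit, since the default filter removed no gene. The count was 1 with limma-voom, with RIN as a covariate and with the replicate block, 0 with the title code block and 0 against controls of other codes, and 1 to 2 without 1 library. The 1 was B2m in the first 3 of these fits. H2-K1 had −0.32 (adjusted p = 0.0569) with limma-voom, −0.33 (0.0564) with the replicate block and −0.31 (0.270) with the title code block. The numbers of the titles did not pair the samples, with same-numbered deviations correlated at −0.16 to 0.33 over 8 pairs in CSS (2 of 8 libraries best with their own number) and −0.01 to 0.13 over 6 in T2D (0 of 6). With that block 478 genes were called in CSS, 0 in T2D and 32 in the contrast, the last beside 12, and DESeq2 called 1313 in CSS and 130 in the contrast. Limma-voom called 0 in the contrast, as did the fit with RIN, and a minimum of 5 CPM gave 23. Controls of title code 1 gave 1130 genes in CSS. No member was called in T2D or in the contrast under any of these, or without any 1 library.

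Estimates near 0 changed sign. In CSS, against controls of title code 1, H2-D1 was at 0.0036 and Tap1 at 0.11. With the title code block Tap1 was at 0.030, Tap2 at −0.041, Tapbp at −0.0056 and Erap1 at 0.020, and against controls of other codes Erap1 was at 0.027. With RIN as a covariate H2-D1 in T2D was at 0.047. The Psmb8 contrast was −0.012 with limma-voom, −0.14 with RIN and −0.021 with the replicate block. Without 1 library, ranges that crossed 0 were −0.22 to 0.085 for Tap1 and −0.016 to 0.15 for Tapbp in CSS. In T2D they were −0.10 to 0.12 for H2-K1, −0.052 to 0.11 for Tap2, −0.14 to 0.036 for Tapbp and −0.0088 to 0.081 for the ratio of Psmb10 to Psmb7. In the contrast they were −0.11 to 0.018 for H2-D1, −0.060 to 0.18 for Tap2 and −0.096 to 0.093 for Psmb8. The ratio of Psmb8 to Psmb5 in CSS was −0.65 to −0.47 without 1 library, that of Psmb10 to Psmb7 0.17 to 0.24, and that of B2m to the heavy chains −0.21 to −0.12, and in T2D −0.25 to −0.12. Against controls of title code 1, the ratio of Psmb8 to Psmb5 was −0.85. The cause of these changes was not tested. Counts of called microglia, loading, endothelial and astrocyte genes without 1 library were added after seeing the data.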
